A study of Homo sapiens with 6 samples.

Results

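The 10 genes described here encode the kinases that switch on the transcription factor NF-kB and the related kinases of interferon induction, together with the subunits that hold them in complexes. They were chosen by gene symbol from the deposited count table, whose coordinates are those of the human build GRCh38. All 10 were found among its 58735 genes, and all 10 passed the filter on low counts. RNA was sequenced from 6 samples of KYSE410, a cell line from a squamous cell carcinoma of the oesophagus. The 3 siADAR1 samples carried a knockdown of ADAR1, an enzyme that turns adenosine into inosine in double-stranded RNA, and the 3 control samples are labelled NC and wild type. The labels give the same culture medium for both groups and no other treatment. Whether the controls were given any siRNA is not stated, and an effect of delivering one cannot be told apart from that of losing ADAR1. The labels also do not tie the samples of a group to separate cultures, and the p-values therefore reflect the spread among the samples at hand, possibly technical. In bulk RNA, fewer cells of a type and less RNA per cell cannot be told apart.

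NF-kB is held in the cytoplasm by IkB proteins until the IKK complex marks them for destruction. That complex is made of the kinases IKK-alpha (CHUK) and IKK-beta (IKBKB) and the scaffold NEMO (IKBKG). Downstream of cytokine and innate immune receptors it is activated by the kinase TAK1 (MAP3K7), which works with the adaptor TAB1 and with TAB2 or TAB3, both of which bind ubiquitin chains. A second, slower route uses the kinase NIK (MAP3K14), which activates IKK-alpha and so drives processing of the NF-kB precursor p100. NIK protein is kept scarce by a complex of TRAF3, TRAF2 and the ubiquitin ligases cIAP1 and cIAP2. TBK1 and IKK-epsilon (IKBKE) are relatives of the IKK kinases that phosphorylate interferon regulatory factors.

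Total counts per library lay between 15175619 and 17329443. ADAR was at 92.8, 95.8 and 77.6 CPM (read counts scaled to a common library size) in the siADAR1 libraries, against 455.6, 431.5 and 443.5 CPM in the control libraries, a log2 fold change of -2.32 ± 0.09 (SE) and 20% of the control level. Of 10 squamous epithelial markers, 9 had at least 10 counts in all, with a summed level of 1340 to 1430 CPM in siADAR1 and 1320 to 1480 CPM in control, while KRT14, a basal keratin gene, had no more than 0.113 CPM in any library. The sum was carried mainly by CDH1, KRT17 and EPCAM, and its members did not move together. KRT6A had a log2 fold change of -2.24, KRT5 of -0.54 and CDH1 of -0.34, while DSG3 was at 1.54, TP63 at 0.48 and KRT17 at 0.35, all past the edgeR threshold. Leukocyte markers summed to at most 0.808 CPM and endothelial markers to at most 2.15 CPM in any library. Fibroblast markers summed to 72.3 to 85 CPM in siADAR1 and 40.1 to 59.4 CPM in control, nearly all of it LUM and COL1A1, with DCN at 0, and their part in the results was not tested. Of all 15294 genes tested, 7804 (51.0%) were called, 3973 (26.0%) of them higher and 3831 (25.0%) lower in siADAR1, at an adjusted p below 0.05 in edgeR's quasi-likelihood test. With library totals in place of the composition factor, 4892 genes were higher and 2887 lower.

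Of the 10 genes, 5 rose in siADAR1, 0 fell and 5 did not pass the test, beside the 26.0% of all tested genes that rose. The risers were IKBKE, MAP3K14, TAB3, TAB2 and IKBKB. A rise of at least 2-fold was called for 3 of them, IKBKE, MAP3K14 and TAB3, where 9.85% of all tested genes rose that far. The median log2 fold change of the 10 was 0.40, and that of all tested genes was 0.00. Each of the 5 rises passed in all 17 alternative analyses, including the 6 that left out 1 library and the analysis without both libraries numbered 1. The CPM ranges of the groups did not overlap for 6 of the 10 genes, the 5 risers and TBK1, beside 60.3% of all tested genes, which 6 of 10 is near. Counts of RNA do not measure the amount or the activity of these kinases.

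**Figure D1:**
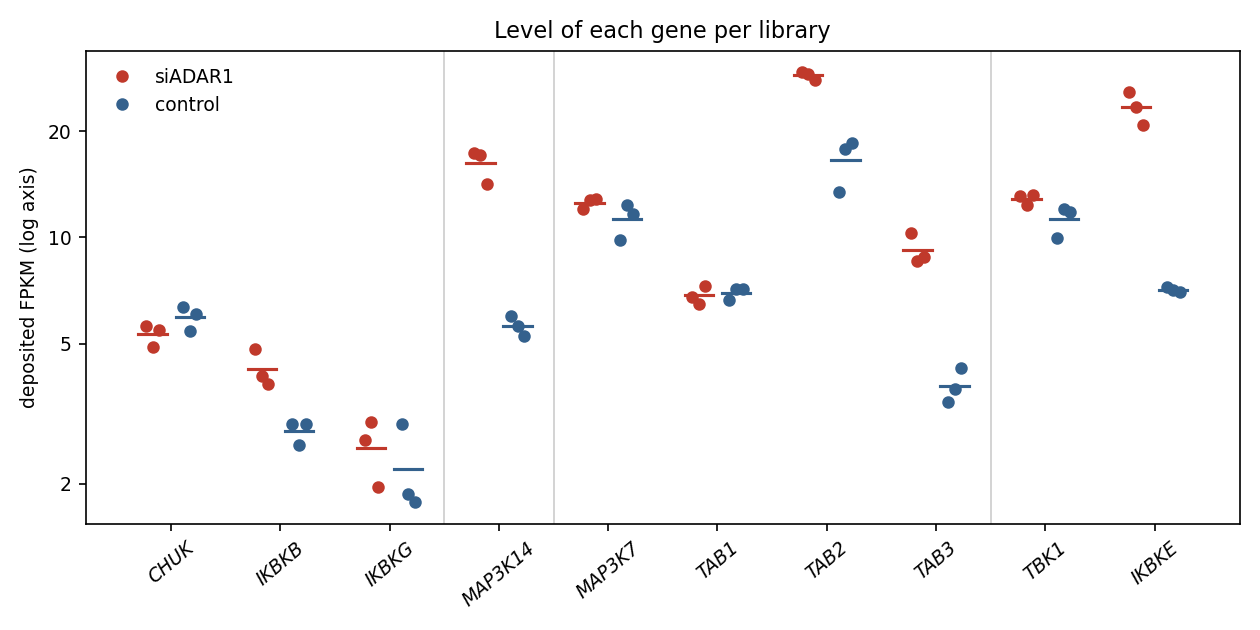
Deposited FPKM (counts scaled by gene length and library size) of each gene on a log axis, with 1 point per library and a line at the mean of each group of 3 libraries. The siADAR1 libraries stand above all control libraries for IKBKE, MAP3K14, TAB3, TAB2, IKBKB and TBK1.

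Among the TAK1 complex genes, the ubiquitin-binding partners TAB2 and TAB3 rose, while the kinase and TAB1 did not pass the test. TAB2 (ENSG00000055208, chromosome 6, 149218641 to 149411613) was at 179, 177 and 171.1 CPM in siADAR1 libraries 1 to 3, against 82, 107.9 and 112.8 CPM in control libraries 1 to 3. Control library 1 was the lowest, and the siADAR1 libraries lay close together, above all controls. TAB2 rose by 0.80 ± 0.11 (SE) on the log2 scale, at an edgeR adjusted p of 6.66e-05. TAB3 (ENSG00000157625, chromosome X, 30827442 to 30975084) was at 132.9, 110.5 and 113.3 CPM in siADAR1, against 43.8, 47.6 and 54.7 CPM in control. Every siADAR1 library had more than any control library, and siADAR1 library 1 had the most. TAB3 rose by 1.29 ± 0.11 (SE), at an edgeR adjusted p of 1.55e-06.

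The kinase gene MAP3K7 (ENSG00000135341, chromosome 6, 90513573 to 90587045) was at 88.0, 93.6 and 94.1 CPM in siADAR1 and 71.9, 90.1 and 85.1 CPM in control, and the ranges overlapped. Its log2 fold change was 0.16, with a 95% interval of -0.06 to 0.37 and an edgeR adjusted p of 0.203. With library totals alone, which moved the median of all tested genes up by 0.12, it was 0.28 and passed, at an adjusted p of 0.0343 in edgeR (range over the alternatives 0.0343 to 0.614). TAB1 (ENSG00000100324, chromosome 22, 39399741 to 39437060), an adaptor that promotes autophosphorylation of TAK1, was at 30.6, 29.2 and 32.9 CPM in siADAR1 and 30.03, 32.1 and 32.1 CPM in control. The log2 fold change of TAB1 was -0.02, with an interval of -0.26 to 0.21, and its sign turned with library totals alone and without siADAR1 library 2.

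Among the start regions that could be searched, that of TAB2 alone held the NF-kB consensus. RefSeq windows of 250 bases before to 50 after a gene start (GRCh38.p14) were found for 9 of the 10 genes, 13 windows in all, and IKBKB had none. They were searched on both strands for the NF-kB consensus and for the core of the interferon-stimulated response element. They were also searched for the AP-1 site, TGANTCA. Of all 35116 windows, 11.3% held the first, 3.57% the second and 7.71% the third. 1 of the 2 windows of TAB2 held 3 matches to the NF-kB consensus. That is 1 window of the 13, a share not above the 11.3% of all windows. The first of those printed here begins 102 bases before the start and overlaps a match on the other strand that begins 101 bases before it, and the other begins 12 bases after the start. Capitals mark the match, and both stretches are printed on the strand of the gene, at chr6:149318189-149318216 and chr6:149318303-149318330. The first fits the consensus as printed, and the second fits it on the opposite strand.
TAB2, before the start: tggcggagaGGGAGGCCCCccgagtccc
TAB2, after the start: gagcgcctaGGAGAGCCCCgggtggggg
The windows of MAP3K14, IKBKE and TAB3, which rose more than TAB2, held none of the 3 motifs, and the AP-1 site was found in 2 of the 4 windows of IKBKG. A match of letters is a description of the window and shows neither binding nor its absence.

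The gene of NIK rose, while that of its substrate IKK-alpha did not pass the test. MAP3K14 (ENSG00000006062, chromosome 17, 45263119 to 45317145) was at 102, 100.5 and 83 CPM in siADAR1, against 34.98, 32.8 and 30.7 CPM in control. The siADAR1 libraries all lay above the control libraries, with siADAR1 library 3 the lowest of its group. The mean was 95.2 ± 10.5 CPM in siADAR1 and 32.8 ± 2.15 CPM in control (SD, n = 3 each), a fold of 2.90 with a 95% interval of 2.46 to 3.41. The edgeR adjusted p was 4.26e-07. MAP3K14 shares 713 of its 5784 exon bases with the antisense gene MAP3K14-AS1, and no strand-marking step is described for the libraries, so reads from the shared bases cannot be told apart. MAP3K14-AS1 had 9, 18 and 14 counts in siADAR1 and 32, 59 and 18 in control, against 1306 to 1808 and 467 to 579 counts of MAP3K14. It was lower in siADAR1, with a log2 fold change of -1.48 ± 0.48 (SE) and an edgeR adjusted p of 0.0213. Without control library 2 the value was -0.89 and the call was lost, with an edgeR adjusted p of 0.16 (range over the alternatives 0.00263 to 0.16), and it was also lost without siADAR1 library 1, at -1.20.

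In the IKK complex, 1 of 3 subunit genes passed, beside the 51.0% of all tested genes called in either direction. IKBKB (ENSG00000104365, chromosome 8, 42271302 to 42332653) was at 54.8, 46.1 and 43.8 CPM in siADAR1, against 33.6, 29.3 and 33.5 CPM in control. All siADAR1 libraries were above all control libraries, and IKBKB rose by 0.59 ± 0.12 (SE) on the log2 scale, at an edgeR adjusted p of 1.02e-03. CHUK (ENSG00000213341, chromosome 10, 100188298 to 100229619) was at 39.4, 34.2 and 38.5 CPM in siADAR1 and 44.4, 37.9 and 42.4 CPM in control, with overlapping ranges. Its log2 fold change was -0.15, with a 95% interval of -0.39 to 0.08, so a rise as large as that of IKBKB lies outside the interval.

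IKBKG (ENSG00000269335, chromosome X, 154541199 to 154565046) had the fewest reads of the 10 genes. It had 168, 168 and 110 counts in siADAR1 and 174, 99 and 96 in control, and the groups overlapped, with control library 1 above every siADAR1 library in counts. For IKBKG the log2 fold change was 0.21 ± 0.23 (SE) at an edgeR adjusted p of 0.471, and its interval of -0.28 to 0.70 includes both no change and a rise as large as that of IKBKB. It was 0.469 without control library 1 and 0.0606 without control library 3, and did not pass in either. Of the 100-base stretches in IKBKG transcripts, 23% also occur in IKBKGP1, a pseudogene copy that had 5 to 26 counts per library. How reads that map to both were counted is not given in the sources used here. The level of IKBKG is therefore uncertain.

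Of the IKK-related kinases, IKBKE rose while TBK1 did not pass. IKBKE (ENSG00000263528, chromosome 1, 206470476 to 206496889) was at 99.2, 90.1 and 80.1 CPM in siADAR1, against 27.7, 27.1 and 26.7 CPM in control. The control libraries lay close together and far below every siADAR1 library. The mean was 89.8 ± 9.56 CPM in siADAR1 and 27.2 ± 0.476 CPM in control (SD, n = 3 each), a fold of 3.31 with a 95% interval of 2.82 to 3.88 and an edgeR adjusted p of 1.54e-07. TBK1 (ENSG00000183735, chromosome 12, 64451880 to 64502108) was at 63.1, 59.5 and 63.8 CPM in siADAR1, against 47.9, 57.7 and 56.8 CPM in control. The ranges did not overlap, but the log2 fold change of 0.20 ± 0.10 (SE) had an edgeR adjusted p of 0.123, and the fold lay between 0.985 and 1.34 at 95%. With library totals alone TBK1 passed, at 0.32 and an adjusted p of 0.0212 in edgeR (range over the alternatives 0.0212 to 0.366).

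The libraries numbered 1 often lay at an end of the range of their group, not always the same end. In siADAR1, library 1 had the highest CPM of its group for all 5 risers. In control, library 1 had the lowest for TAB2, TAB3, MAP3K7, TBK1 and TAB1 and the highest for CHUK, IKBKG, MAP3K14, IKBKB and IKBKE. Without both libraries numbered 1, the log2 fold changes of the risers were 1.66 for IKBKE, 1.53 for MAP3K14, 1.13 for TAB3, 0.66 for TAB2 and 0.52 for IKBKB.

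**Figure D2:**
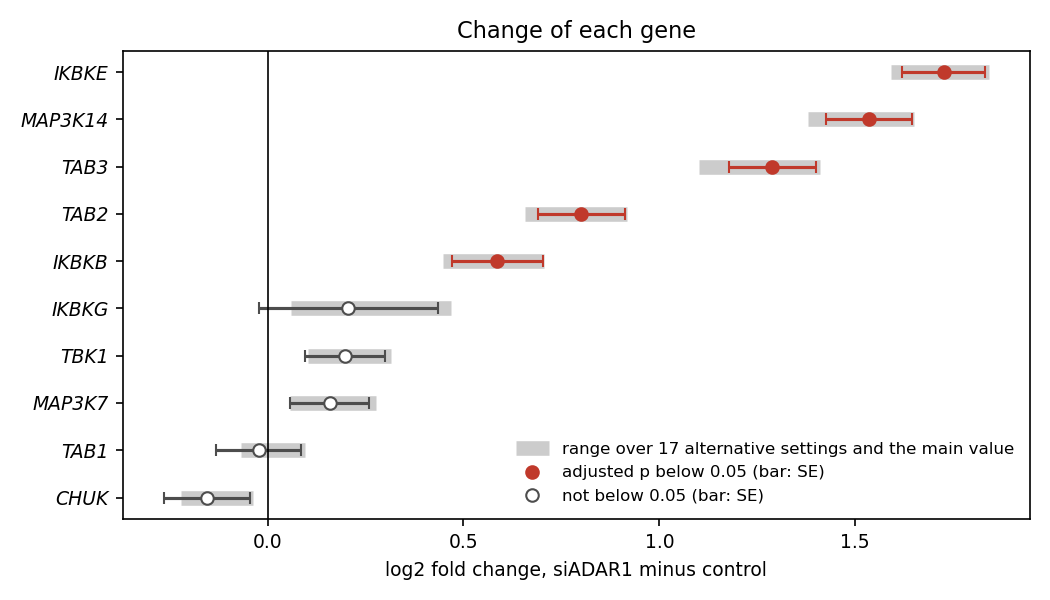
The log2 fold change of each gene, siADAR1 minus control, with its SE from edgeR over 3 libraries per group. Grey bars span the main value and the 17 alternative settings. They stay at or above 0.449 for the 5 filled points, cross 0 for TAB1 and stay below 0 for CHUK.

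Levels of different genes were compared per length, on the deposited FPKM, which divides by the full exon length given in the table. In siADAR1 the order was TAB2 at 28.9 ± 0.729 FPKM, IKBKE at 23.4 ± 2.53, MAP3K14 at 16.2 ± 1.83, TBK1 at 12.9 ± 0.467, MAP3K7 at 12.6 ± 0.447, TAB3 at 9.23 ± 0.955, TAB1 at 6.85 ± 0.393, CHUK at 5.32 ± 0.391, IKBKB at 4.24 ± 0.516 and IKBKG at 2.53 ± 0.533 FPKM (SD, n = 3). TBK1 and MAP3K7 were the only neighbours in that order whose ranges overlapped. In control the order was TAB2 at 16.6 ± 2.74 FPKM, MAP3K7 and TBK1 at 11.3 each, IKBKE at 7.09 ± 0.117, TAB1 at 6.98 ± 0.271, CHUK at 5.94 ± 0.472, MAP3K14 at 5.62 ± 0.363, TAB3 at 3.79 ± 0.437, IKBKB at 2.83 ± 0.215 and IKBKG at 2.20 ± 0.652 FPKM. There the ranges overlapped between MAP3K7 and TBK1, between IKBKE and TAB1, between CHUK and MAP3K14, and between IKBKB and IKBKG. TAB2 was the most abundant of the 10 and IKBKG the least in both groups, while IKBKE had rank 2 in siADAR1 and rank 4 in control, and MAP3K14 rank 3 in siADAR1 and rank 7 in control. Summed over the 10 genes the level was 122 ± 5.87 FPKM in siADAR1 and 73.6 ± 4.21 FPKM in control. The 3 genes of the IKK complex summed to 13.1, 11.9 and 11.3 FPKM in siADAR1 and 12.2, 9.87 and 10.8 FPKM in control, with overlapping ranges. TAB2 and TAB3 together came to 38.1 ± 1.51 FPKM in siADAR1 and 20.4 ± 3.13 FPKM in control, and IKBKE and TBK1 together to 36.3 ± 2.5 FPKM in siADAR1 and 18.4 ± 1.04 FPKM in control.

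Ratios between 2 genes of the same library need no library scaling, and 5 pairs were examined. The log2 ratio of IKBKE to TBK1 counts was 0.65, 0.60 and 0.33 in siADAR1, against -0.79, -1.09 and -1.09 in control, a difference of 1.52. On FPKM, IKBKE was 1.82 ± 0.212 times as abundant as TBK1 in siADAR1 and 0.635 ± 0.0784 times as abundant in control (SD, n = 3 each). On counts and on FPKM, the RNA ratio of this pair thus lay on opposite sides of equality in the 2 groups, in every library.

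The log2 ratio of TAB3 to TAB2 counts was -0.43, -0.68 and -0.60 in siADAR1, against -0.91, -1.18 and -1.04 in control, a difference of 0.48. TAB3 stayed below TAB2 in each library, at 0.320 ± 0.0286 of its FPKM in siADAR1 and 0.230 ± 0.0219 in control. The log2 ratio of IKBKB to CHUK counts was 0.48, 0.43 and 0.19 in siADAR1, against -0.40, -0.37 and -0.34 in control, a difference of 0.74. On FPKM the kinase gene of the faster route stayed below its partner, at 0.797 ± 0.0842 of CHUK in siADAR1 and 0.476 ± 0.0102 in control. The log2 ratio of MAP3K14 to CHUK counts was 1.37, 1.56 and 1.11 in siADAR1 and -0.34, -0.21 and -0.47 in control, a difference of 1.69. The ratio of TAB1 to MAP3K7 moved little, with log2 values of -1.52, -1.68 and -1.52 in siADAR1 and -1.26, -1.49 and -1.41 in control, a difference of -0.19. For all 5 pairs the groups did not overlap and the exact two-sided permutation p was 0.10, also after adjustment over the 5 pairs, which is the smallest that 3 libraries against 3 can give. None of the ratios could therefore pass a threshold of 0.05, and the pairs were chosen with earlier results known.

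**Figure D3:**
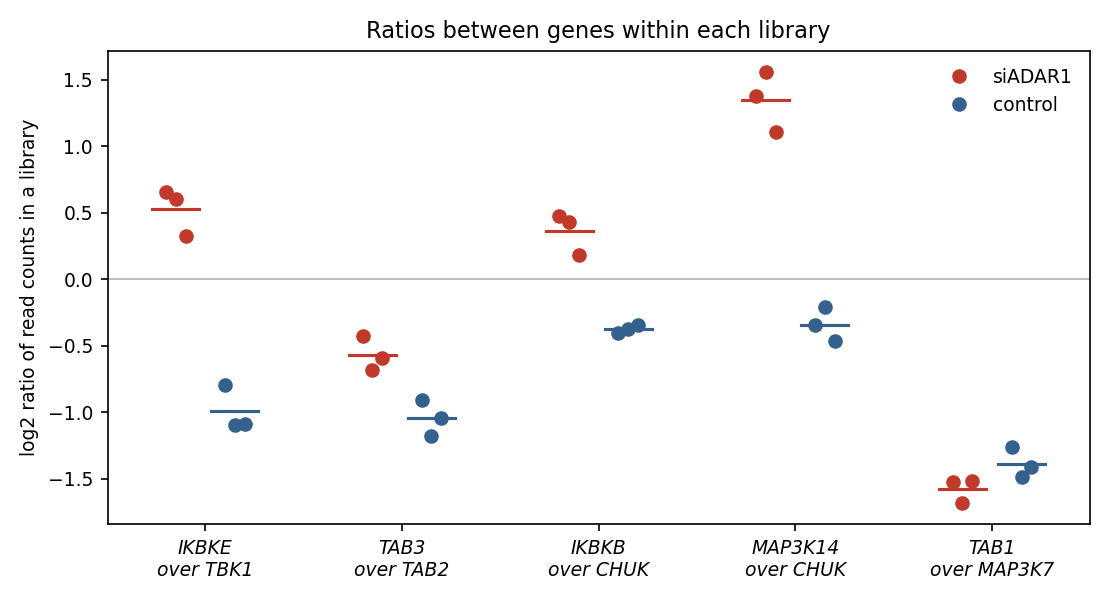
The log2 ratio of read counts of 2 genes within each library, with 1 point per library and a line at the group mean. IKBKE over TBK1, IKBKB over CHUK and MAP3K14 over CHUK lie above 0 in siADAR1 and below 0 in control, while TAB3 over TAB2 and TAB1 over MAP3K7 lie below 0 throughout.

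The genes whose levels followed MAP3K14, IKBKE and TAB3 most closely were sought by the root mean square difference of log2 CPM over the 6 libraries, each gene centred on its own mean. Nearest to IKBKE was FAM214A, at a difference of 0.0476 log2 units, followed by IRF1, a transcription factor gene induced by interferon and NF-kB, at 0.0566. IRF1 was at 181, 156.4 and 138.5 CPM in siADAR1 and 45.3, 46.2 and 49.0 CPM in control, with the order of the siADAR1 libraries the same as for IKBKE and that of the control libraries the reverse. Nearest to MAP3K14 were STX1A, a syntaxin gene of vesicle fusion, at 0.0778, and RHOV, a small GTPase gene, at 0.0853. Nearest to TAB3 were ZSCAN26 at 0.034 and PLEKHF2 at 0.0454. These values describe likeness over 2 groups of 3 libraries and carry no test.

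In all, 7 lists with 66 genes from around the complexes were set beside them, of which 64 were tested, 28 rose and 11 fell, beside the 26.0% of all tested genes that rose and the 25.0% that fell. Among the proteins that carry NF-kB signals from receptors and control the turnover of NIK, 6 of 10 rose, 2 fell and the median log2 fold change was 0.75. TRAF6, a ubiquitin ligase that recruits TAK1, rose by 1.21 ± 0.12 (SE) on the log2 scale, with 53.7, 49.6 and 43.6 CPM in siADAR1 and 19.5, 20.9 and 23.1 CPM in control. BIRC2, which encodes cIAP1, rose by 1.04 ± 0.10. The other genes of the complex that degrades NIK, named after their values were seen, rose as well. TRAF3 was at 107.4 ± 19.6 CPM in siADAR1 and 54.6 ± 4.39 CPM in control, TRAF2 at 73.4 ± 7.74 and 38.5 ± 2.78 CPM, and BIRC3, which encodes cIAP2, at 539.9 ± 31.7 and 73.6 ± 22.5 CPM (SD, n = 3 each). The 2 that fell were TRAF5, at -0.72 ± 0.18 (SE), and the kinase gene RIPK1, at -0.34 ± 0.11. RIPK1 was not called without siADAR1 library 2, without siADAR1 library 3 or with library totals alone.

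Of the 8 NF-kB and IkB genes on which these kinases act, 6 rose and 0 fell, with a median of 0.99. The shares over all tested genes were 26.0% and 25.0%. NFKBIE, an IkB gene, was at 104.6, 86.6 and 78.4 CPM in siADAR1 and 22.5, 21.0 and 21.0 CPM in control. NFKB2, which encodes the p100 precursor processed through NIK and IKK-alpha, was at 318.4, 210.8 and 203 CPM in siADAR1 and 64.2, 53.2 and 59.1 CPM in control. Its siADAR1 library 1 stood well above the others of that group. The 2 that did not pass were RELA, at -0.15 ± 0.10 (SE), and NFKBIA, the gene of IkB-alpha, at 0.17 ± 0.31. NFKBIA was at 122.4, 161.3 and 178.1 CPM in siADAR1 and 80.8, 165.4 and 163.8 CPM in control, and its sign turned without control library 1.

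In the branch below TAK1 that leads to the kinases JNK and p38, 3 of 11 genes rose, 2 fell and the median was -0.02. These counts are near the 26.0% and 25.0% of all tested genes. MAP2K3, a kinase of p38, rose by 0.72 ± 0.11 (SE) on the log2 scale, and MAP2K7 and MAPK10 were higher by 0.31 ± 0.10 and 0.67 ± 0.24. With siADAR1 library 1, siADAR1 library 2 or control library 2 left out, only 1 gene of this list rose. MAP2K7 was also not called without control library 3. MAPK10 was not called without siADAR1 library 3, without control library 1 or without both libraries numbered 1. MAPK9, which encodes JNK2, was at 56.0 ± 5.02 CPM in siADAR1 and 84.6 ± 5.01 CPM in control (SD, n = 3 each), and MAPK12 had a log2 fold change of -0.35 ± 0.10. MAPK12 was not called with library totals alone.

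Among 10 adaptors and substrates of TBK1 and IKK-epsilon, 4 rose and 2 fell, with a median of 0.35. Over all tested genes, 26.0% rose and 25.0% fell. OPTN, an adaptor that binds TBK1 and ubiquitin, rose by 0.86 ± 0.10 (SE) on the log2 scale. IRF7, a transcription factor that both kinases phosphorylate, rose by 1.15 ± 0.16, TICAM1 by 0.58 ± 0.12 and AZI2 by 0.43 ± 0.11. TMEM173, which encodes the DNA-sensing adaptor STING, was at 10.2, 11.3 and 12.6 CPM in siADAR1, against 24.2, 26.4 and 25.4 CPM in control, with a log2 fold change of -1.16 ± 0.13. TANK, an adaptor of TBK1, was at 16.6 ± 0.901 CPM in siADAR1 and 26.8 ± 4.32 CPM in control (SD, n = 3 each), with a log2 fold change of -0.68 ± 0.14.

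Of 16 other kinases of the MAP3K family, to which TAK1 and NIK belong, 14 were tested, 5 rose and 3 fell, with a median of 0.11. These counts too are near the 26.0% and 25.0% of all tested genes. The rises were in MAP3K1, at 1.12 ± 0.10 (SE) on the log2 scale, MAP3K2, at 0.81 ± 0.10, MAP3K9, at 0.57 ± 0.11, MAP3K13, at 0.53 ± 0.12, and MAP3K4, at 0.37 ± 0.09. MAP3K1 was at 52.2, 51.3 and 52.5 CPM in siADAR1 and 24.0 CPM in each control library. MAP3K14, at 1.54, had a larger log2 fold change than any of these 14. MAP3K21, MAP3K6 and MAP3K12 fell by 0.73, 0.54 and 0.49, and the call for MAP3K12 was lost in 6 of the 17 alternatives.

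Of 8 deubiquitinases, phosphatases and related inhibitors that restrain these kinases, 4 rose and 0 fell, with a median of 0.45. Among all tested genes the shares were 26.0% and 25.0%. CYLD, a deubiquitinase that removes the chains on which TAK1 and IKK assemble, was at 93.7, 60.8 and 68.1 CPM in siADAR1 and 25.4, 25.0 and 28.3 CPM in control. CYLD rose by 1.50 ± 0.15 (SE) on the log2 scale. OTUD7B rose by 1.04 ± 0.12, TNIP1 by 0.56 ± 0.11 and TNFAIP3, which encodes A20, by 1.66 ± 0.31. Without control library 1, and also with the replicate number as a block, 1 gene of this list was called lower. Under that block, the adjusted p of TNFAIP3 was 0.0671 in edgeR, within a range over the alternatives of 5.83e-15 to 0.0671. Of the chaperone genes on which IKK stability depends, both HSP90 genes fell, HSP90AB1 to 3343 ± 348.4 CPM in siADAR1, against 5545 ± 177.2 CPM in control, and HSP90AA1 to 1576 ± 185.9 CPM in siADAR1, against 2312 ± 369.5 CPM in control (SD, n = 3 each). CDC37, their co-chaperone, had a log2 fold change of 0.08 ± 0.08.

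**Figure D4:**
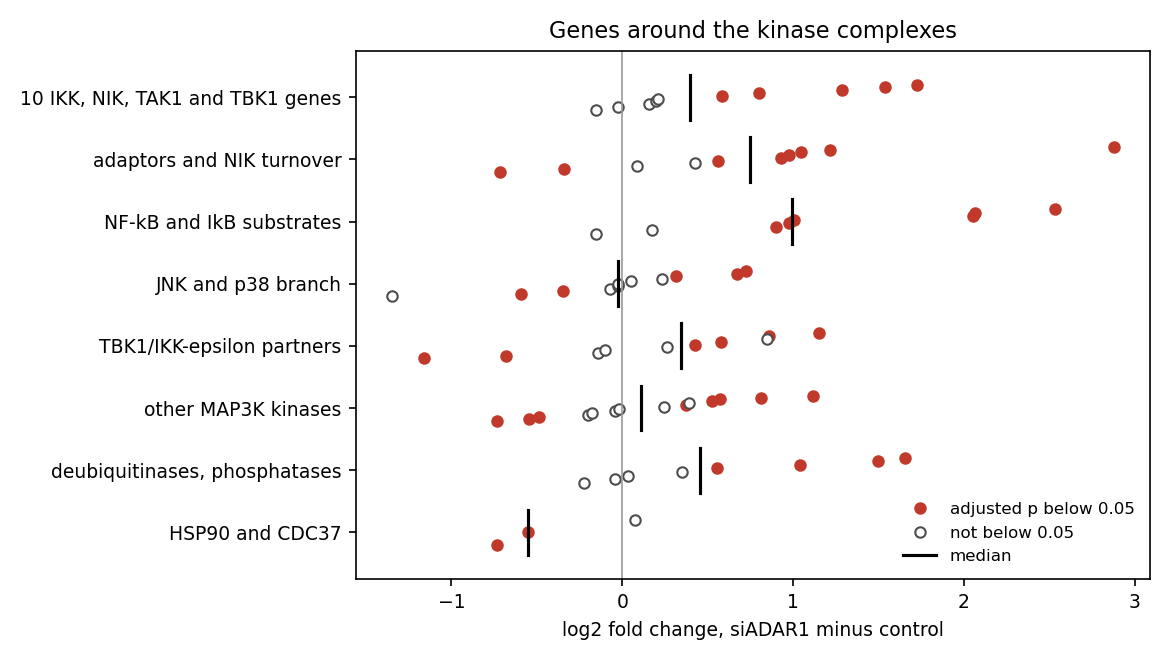
The log2 fold change, siADAR1 minus control, of the 10 genes and of the 7 lists around them, with 1 point per tested gene and a bar at the median of each list. Medians run from 0.99 for the NF-kB and IkB genes to -0.55 for the HSP90 and CDC37 genes, and the 10 genes have a median of 0.40.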

How the data were processed

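The authors deposited raw whole-number counts of reads per gene, judged from the file headers and the values. FPKM values were also deposited by the authors, per the file headers, and carry a library factor of theirs (1.05 to 1.06 of the count total in siADAR1, 0.966 to 0.97 in control). The deposited group means of FPKM were not used. The submitters' processing notes list HISAT2 2.0.5, fastp and CASAVA without saying what each did. No source used here names the counting tool, genome build or annotation. All 58735 gene coordinates equal those of GENCODE release 29 on GRCh38. Per the labels' protocols, mRNA with a poly(A) tail was enriched with oligo-dT beads.

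Table columns were assigned to samples by the group and number in the sample titles, and 0 columns had no sample. Genes were kept by filterByExpr (minimum count 10), scaled by trimmed mean of M-values (factors 1.04 to 1.05 in siADAR1, 0.957 to 0.963 in control) and tested with the robust quasi-likelihood F test of edgeR 4.0.16 in R 4.3.3, with group as the single term. The adjustment was Benjamini-Hochberg over all 15294 tested genes, with a threshold of 0.05. CPM uses the scaled library sizes. The SE is the size of the log2 fold change divided by the square root of F. The 95% intervals use the total degrees of freedom of the test, the residual ones plus the prior ones that edgeR estimates over all genes. The test was tested on simulated data. Far fewer genes changed there than were called here, and the outcome is not reported. No library repeated another of its group, since pairs gave 3.95 to 18 times the chi-square that counting noise gives. The lowest values, 3.95 in siADAR1 and 5.02 in control, were those of libraries 2 and 3. The batch value was the same for every sample.

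Alternatives were other size factors, library totals alone, DESeq2 1.42.0, limma-voom and limma-trend on FPKM (limma 3.58.1, pseudocount 0.1 or 1, mean of at least 0.5), other filters, the replicate block, leaving out libraries and protein-coding genes alone. The members, lists, pairs and rules were chosen with earlier results of these data known. The naming rule took all 10 members, ADAR, the 2 genes with the smallest p in each list, overlapping or namesake genes with at least 10 counts in all, and the 2 nearest genes by level to each of MAP3K14, IKBKE and TAB3. Further genes of the lists were named after their values were seen. A gene that overlaps a member is not reported here.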

Additional observations from a re-analysis of the deposited data

How the results depend on the processing

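Among the 10 genes, 5 rose in 16 of the 17 alternatives and 7 with library totals alone, and 0 fell in any. The log2 fold changes of the risers ranged from 1.59 to 1.84 for IKBKE, 1.38 to 1.65 for MAP3K14, 1.10 to 1.41 for TAB3, 0.656 to 0.918 for TAB2 and 0.449 to 0.705 for IKBKB. MAP3K7 and TBK1 passed only with library totals alone, a scaling that by its construction leaves out the composition factor. TAB1 was at 0.10 with library totals alone, and at -0.0665 to 0.0136 with 1 library left out, above 0 without siADAR1 replicate 2. With 1 library left out, NFKBIA was at -0.11 to 0.33, below 0 without control replicate 1. The cause was not tested. Under the alternatives, the numbers of genes around the complexes that rose ranged from 26 to 34 and of those that fell from 8 to 13. Deviations of same-numbered libraries from their group means correlated at 0.281, 0.092 and 0.145. Those of a library numbered 1 and a library of another number in the other group correlated at -0.214 to -0.136. For each gene the deviations of a group sum to 0, so values below 0 there follow largely from the 0.281. Control library 2 correlated best with siADAR1 library 3, and the main fit did not pair the samples by number. Whether the libraries numbered 1 share a factor was not tested. With the replicate block 4396 genes rose and 4186 fell over all genes, 5 of the 10 rose, and the difference of the IKBKE to TBK1 log ratio was 1.52 with an exact p of 0.25, the smallest that 3 pairs allow. Depth limits IKBKG most, with 96 to 174 counts per library. Read counts carry no molecular identifiers, so they show counting depth and not independent molecules.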
